A study of Mus musculus with 3 samples.

Results

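Plet1-positive resting cDC2 are type 2 conventional dendritic cells of the mouse Peyer's patch, the lymphoid follicles of the small intestine. They carry transcripts of Plet1, Hpgd or Mmp12 and were capped on Ccr7 and Fscn1, genes of mature dendritic cells. They were chosen cell by cell. Cells needed 500 or more detected genes and no more than 10% of their UMIs (counted transcript molecules) in mitochondrially encoded genes. Per 10000 UMIs it had under 40 of Lyz1, C1qa, C1qb and C1qc together, under 15 of Ccr7 and Fscn1, under 8 of Naaa, Xcr1 and Clec9a, and at least 40 of H2-Ab1. Its raw UMIs had to be under 4 for Mki67, Top2a, Birc5 and Ube2c together, under 3 each for Cd79a, Siglech and Cd209a, and at least 3 for Plet1, Hpgd and Mmp12 together. The rule took 1291 of the 15434 cells kept: 744 of 5304 in Control, 289 of 5023 in CpG and 258 of 5107 in R848.

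Live cDC1, cDC2, LysoDC (lysozyme-making, monocyte-derived dendritic cells) and macrophages had been sorted by flow cytometry from CD11c-enriched cells, and a 10x Genomics Chromium 3' library was made for each group. All mice were female C57BL/6Rj, with 12 mice and 88 Peyer's patches for Control, 12 and 85 for CpG and 12 and 90 for R848. Control mice were untreated, not mock-injected. The other groups were injected into the peritoneum 9 hours before collection, with 125 µg of CpG (DNA that triggers TLR9) or with 10 µg of R848 (a small molecule that triggers TLR7), each in PBS. The mice of a group were pooled, so that each group is 1 library without a replicate, and no test was possible. Differences between libraries cannot be told apart from differences between pools, sorts or library preparations. Intervals are at 95% and reflect counting error alone: exact Poisson for levels, exact conditional binomial for ratios and Clopper-Pearson for shares. Of the cell barcodes, 42 occurred in both Control and CpG, 33 in Control and R848 and 35 in CpG and R848, and 1 of these was chosen in both libraries of its pair.

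Conventional dendritic cells take up antigen and present it to T cells, and cDC2 are the type that mainly feeds MHC class II presentation to CD4+ T cells. In Peyer's patches, cDC2 are found in the dome below the epithelium and between the follicles, and on activation they switch off resting genes and acquire Ccr7 and Fscn1. Plet1 encodes a surface glycoprotein of epithelial progenitors that intestinal dendritic cells also carry. Hpgd encodes the enzyme that inactivates prostaglandin E2, and Mmp12 encodes macrophage metalloelastase. Epcam encodes an adhesion molecule of epithelia that Langerhans cells also make, and Ear2 encodes a secreted ribonuclease.

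Because interferon-stimulated genes were among those with the largest ratios of treated to untreated Plet1-positive cDC2, the sequences before the transcription starts of 4 of them are shown. Capitals mark each match on either strand to GAAA followed after any 2 bases by a second GAAA, the core spacing of the interferon-stimulated response element, where matches may overlap. They are the 250 bases before the start from RefSeq (GRCm38.p6), read 5' to 3' along the gene.
Isg15 (chr4:156200819-156201068, minus strand): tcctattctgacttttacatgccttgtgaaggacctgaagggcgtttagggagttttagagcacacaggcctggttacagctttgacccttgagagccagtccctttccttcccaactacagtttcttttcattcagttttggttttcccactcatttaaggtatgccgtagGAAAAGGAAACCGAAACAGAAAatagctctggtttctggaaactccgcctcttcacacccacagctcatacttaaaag
Ifit3 (chr19:34583279-34583528, plus strand): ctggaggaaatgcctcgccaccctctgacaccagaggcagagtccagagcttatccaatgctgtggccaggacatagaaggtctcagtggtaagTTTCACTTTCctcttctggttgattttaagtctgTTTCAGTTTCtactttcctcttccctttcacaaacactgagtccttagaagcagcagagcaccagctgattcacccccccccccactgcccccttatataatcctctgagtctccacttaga
Ifit1 (chr19:34640639-34640888, plus strand): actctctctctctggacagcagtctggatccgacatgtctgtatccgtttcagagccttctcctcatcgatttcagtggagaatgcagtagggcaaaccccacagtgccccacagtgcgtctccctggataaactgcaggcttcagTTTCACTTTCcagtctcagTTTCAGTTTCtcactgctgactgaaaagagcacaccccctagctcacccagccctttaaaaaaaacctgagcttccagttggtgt
Cxcl10 (chr5:92348890-92349139, minus strand): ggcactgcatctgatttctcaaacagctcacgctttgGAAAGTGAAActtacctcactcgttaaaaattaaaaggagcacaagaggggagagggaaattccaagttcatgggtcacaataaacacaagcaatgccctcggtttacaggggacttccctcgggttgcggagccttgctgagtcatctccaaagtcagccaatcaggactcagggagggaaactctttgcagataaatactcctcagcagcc
Isg15, a ubiquitin-like modifier, had 3 overlapping matches starting at -78, -72 and -66 from the transcription start. Ifit3 and Ifit1, antiviral proteins of 1 family, each had 2 matches, at -156 and -122 and at -104 and -85. Cxcl10, a chemokine for CXCR3-bearing T cells, had 1, at -213. In windows of 300 bases, 250 before and 50 after the start, the motif occurred in 1079 of 27025 genes (3.99%). It occurred in 15 of the 27 interferon-stimulated list genes with a window (55.6%), in 19 of 53 genes called higher with CpG (35.8%) and in 16 of 36 called higher with R848 (44.4%), against 5.14% and 4.63% of the genes tested. Irf7, Oasl2, Ms4a4c and Isg20, also named for CpG, had no such letters in their windows. The 4 sequences shown were taken from genes with a match. A match is a description of the letters and not of binding.

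Plet1 itself decided most of the choice. The 5 marker genes lie on GRCm38 (GENCODE M21) at chr9:50494525-50505482 for Plet1, chr8:56294585-56321043 for Hpgd, chr9:7344381-7369499 for Mmp12, chr14:44102654-44103534 for Ear2 and chr17:87635979-87651129 for Epcam. Plet1 alone reached 3 UMIs in 686 of the 744 Control cells, 286 of 289 CpG cells and 254 of 258 R848 cells. Hpgd was detected in 194, 47 and 35 of these cells and Mmp12 in 221, 56 and 39. Cells with neither gene numbered 414, 202 and 195, and 6 Control cells and 0 treated cells had no Plet1 UMI. The label's Hpgd and Mmp12 were thus each detected in a minority of the cells. In B-lineage cells (at least 3 Cd79a UMIs), which should lack these genes, Hpgd was seen in 1.22% of Control cells and Mmp12 in 2.44%, at a median of 6697.5 UMIs against 7137.5 in the Control Plet1-positive cDC2. The median sum of the 3 genes was 6, 10 and 9 UMIs and the highest 56, 56 and 43. Just inside the limit, at 3 UMIs, were 118, 30 and 25 cells; just outside, at 2, were 171, 27 and 31 otherwise eligible cells.

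As the choice used these 3 genes, their levels are a description. CPM (counts per 1e6) is a gene's UMIs summed over the cells of a class and scaled to the class's summed UMIs, and it is compared within a gene. Plet1 was at 929 CPM in Control (interval 903 to 954), 1201 in CpG and 1185 in R848. Hpgd was at 67.1 CPM in Control, 24.9 in CpG and 26.2 in R848, and Mmp12 at 104, 53.3 and 48.0. Hpgd and Mmp12 were thus lower in both treated libraries. Plet1 was not, but the cells were chosen on the sum of the 3 genes, so this contrast is not read. Choosing on Plet1 alone, with at least 3 Plet1 UMIs, left Hpgd at 51.7, 24.4 and 24.7 CPM and Mmp12 at 97.4, 51.7 and 47.5. That choice still rests on Plet1. The 3 genes were not particular to the chosen cells. Resting cDC2 that the rule left out for 3 or more Cd209a UMIs (Cd209a-positive cDC2) held Plet1 at 615 CPM, Hpgd at 105 (88.6 to 123) and Mmp12 at 61.9 in Control (204 cells), with Hpgd above its 67.1 CPM in the chosen cells. The 14 such cells of R848 held Plet1 at 2186 CPM (1930 to 2466). Outside the cDC2, Plet1 was at 52.7, 42.4 and 15.3 CPM in B-lineage cells, and the mature dendritic cell gate, defined by at least 15 UMIs of Ccr7 and Fscn1 per 10000, held 89.1, 15.1 and 12.7 CPM.

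**Figure D1:**
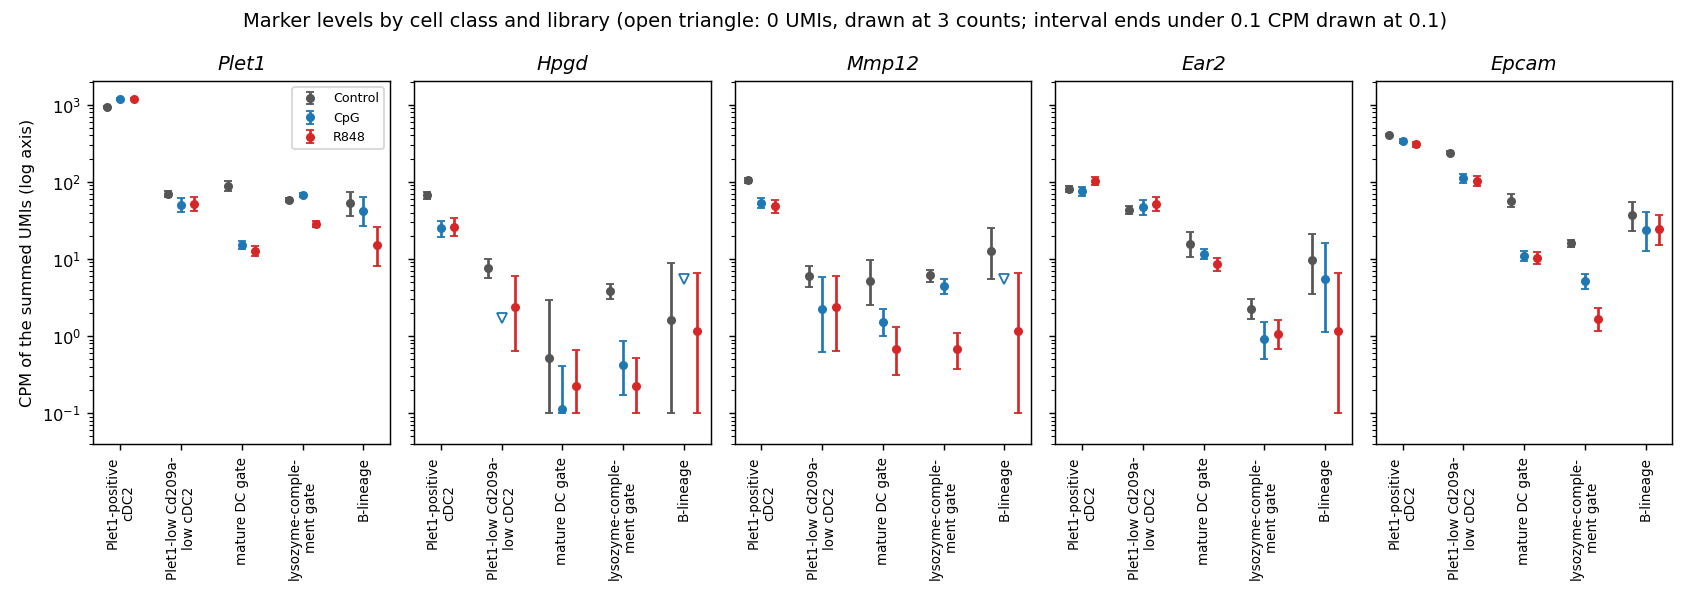
CPM (log axis) of the 5 marker genes in 5 cell classes of the Control, CpG and R848 libraries, with exact 95% Poisson intervals for counting error. Of the classes drawn, which leave out Cd209a-positive cDC2, Plet1 is highest in Plet1-positive cDC2 by the rule that chose them, and Epcam runs from 310 to 406 CPM there and from 103 to 238 CPM in Plet1-low cDC2.

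Epcam and Ear2 were not part of the choice. Epcam was at 406 CPM in Control (389 to 423), 340 in CpG (319 to 363) and 310 in R848 (287 to 333). Neighbouring cDC2 under the same limits but with fewer than 3 UMIs of Plet1, Hpgd and Mmp12 (Plet1-low cDC2) had 238, 111 and 103 CPM. Epcam was therefore higher in the Plet1-positive cells of every library, 1.71-fold in Control (1.60 to 1.82), 3.08-fold in CpG (2.63 to 3.61) and 2.99-fold in R848 (2.53 to 3.55), and past 2-fold only with the agonists. Against Control it was 0.839 times as high in CpG Plet1-positive cells and 0.763 in R848, where the Plet1-low cells had log2 ratios of -1.07 and -1.16. Ear2 stood at 81.6, 75.5 and 103 CPM in Plet1-positive cells and at 43.6, 47.1 and 51.7 in Plet1-low cells. After thinning cells to 4000 UMIs each, an Epcam UMI was found in 75.3%, 69.4% and 63.7% of Plet1-positive cells (85.1%, 85.1% and 85.7% unthinned). B-lineage cells held one in 13.8%, 3.64% and 7.41%. Thinning left out 36, 1 and 7 Plet1-positive cells.

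The share of Plet1-positive cells moved in opposite ways with the denominator. They were 14.0% of all cells kept in Control (13.1 to 14.99), 5.75% in CpG (5.13 to 6.43) and 5.05% in R848 (4.47 to 5.69). The resting cDC2 gate, the same limits without those on Cd209a and on the sum of Plet1, Hpgd and Mmp12, held 40.2%, 10.5% and 10.3% of cells, and the mature gate 6.37%, 56.1% and 43.2%. Within the resting gate, Plet1-positive cells were 34.9% in Control (32.9 to 37.0), 54.7% in CpG (50.4 to 59.0) and 49.1% in R848 (44.8 to 53.5). Both treated shares lay above the Control interval. Since the limits are raw UMIs, depth enters: Plet1-positive cells had medians of 7137.5, 9605 and 8382.5 UMIs and Plet1-low cells 5466.5, 7214 and 6714. On cells thinned to 4000 UMIs the shares of the resting gate were 28.6%, 42.6% and 39.5%. A sort and its gates set which cells entered each library, and the proportions in which sorted populations were mixed are not stated in the labels.

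**Figure D2:**
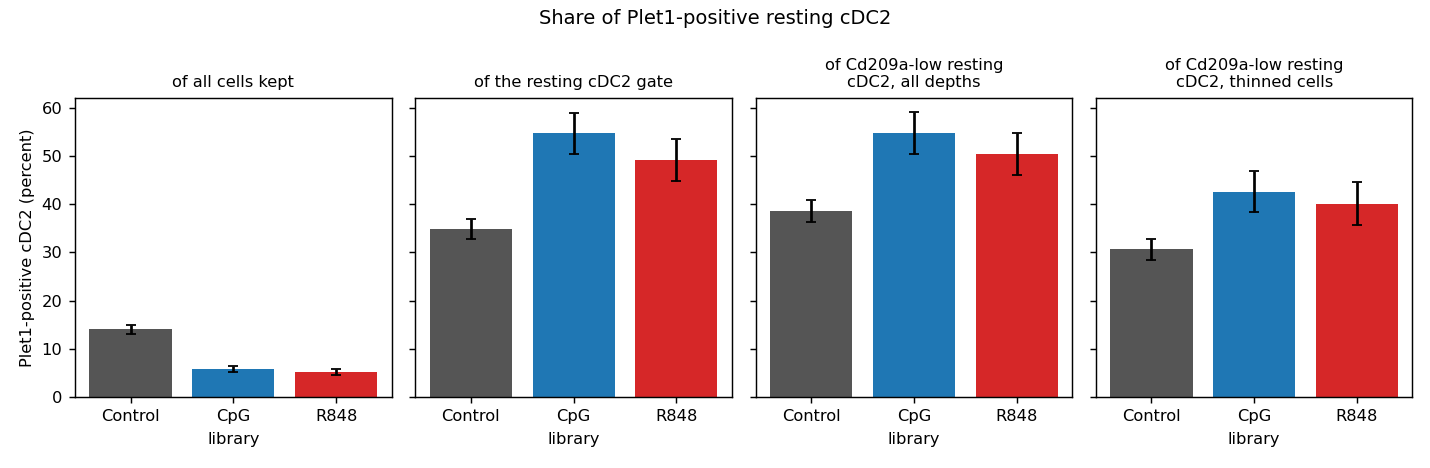
Percent of cells that are Plet1-positive cDC2 in each library, of 4 denominators, with 95% Clopper-Pearson intervals for counting error. The share of all cells is 14.0% in Control and 5.75% and 5.05% with CpG and R848, while the share of resting cDC2 is 34.9% in Control, 54.7% in CpG and 49.1% in R848.

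Neighbouring cDC2 with Cd209a (DC-SIGN related lectin, at least 3 UMIs) were few in the treated libraries: 204 cells in Control, 1 in CpG and 14 in R848. As shares of the resting gate, which was itself smaller there, they were 9.57%, 0.189% and 2.67%. Of the Cd209a-low resting cDC2, Plet1-positive cells made up 38.6%, 54.8% and 50.5%, so that leaving the Cd209a-positive cells out of the denominator moved the Control share most. Thinned, these shares were 30.7%, 42.6% and 40.2%.

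Plet1-positive cells differed from Plet1-low cDC2 in a small set of genes that recurred in all 3 libraries. A gene was called where the higher class had at least 50 CPM and 20 UMIs, the ratio was at least 2-fold and its interval left out 1; log2 ratios have 5 CPM added to both sides. Of 2322 genes tested, 12 were called higher in every library (0.517%) and 13 lower (0.56%), or 1.08% either way. The genes higher were Qpct, Lyz2, Il22ra2, Pilra, Cyp4f18, Gsg1, Clec4n, Clec5a, Igsf8, Pilrb2, Itgae and Pla2g7. Within single libraries, the genes called higher were 19 of 2430 in Control (0.782%), 42 of 2779 in CpG (1.51%) and 48 of 2767 in R848 (1.73%). Those called lower were 24 (0.988%), 63 (2.27%) and 68 (2.46%). Of the 19 and 24 genes called in Control, 19 and 23 had the same sign in both treated libraries. The matching share over all genes tested is not given, and the classes were split on the same genes in each library. These counts are therefore a description. The classes also differed in depth, as given above, and the part of depth was not tested.

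Il22ra2 encodes IL-22 binding protein, a soluble decoy that keeps the cytokine IL-22 from its receptor on the epithelium. It was at 1004 CPM in Control Plet1-positive cells, 1036 in CpG and 645 in R848, against 367, 271 and 135 in Plet1-low cells. It was thus 2.74-fold (2.61 to 2.87), 3.82-fold (3.47 to 4.21) and 4.8-fold (4.17 to 5.54) higher. Thinned, 72.6% of Control Plet1-positive cells had an Il22ra2 UMI, 59.0% in CpG and 40.6% in R848 (77.4%, 69.9% and 48.1% unthinned), where B-lineage cells, which should lack it, had 36.9%, 9.09% and 11.1%. Il22ra2 was the top gene by level of this set after Lyz2 in each library.

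Itgae, the integrin CD103 that binds E-cadherin on epithelial cells, was at 135 CPM in Control, 182 in CpG and 185 in R848, against 62.4, 51.1 and 41.7 in Plet1-low cells. Qpct, an enzyme that forms pyroglutamate at protein ends, stood at 174, 125 and 83.9 CPM against 46.4, 16.5 and 10.6. Pilra and Pilrb2 are paired immunoglobulin-like receptors, and Pilra ranged from 228 to 302 CPM against 73.8 to 101. Pilrb2 belongs to a family of near-identical copies, so its count is uncertain. Clec4n (dectin-2, a receptor for fungal mannans) was at 102, 150 and 165 CPM against 40.1, 52.2 and 44.6, and Clec5a, another C-type lectin of myeloid cells, at 77.7, 91.3 and 101, which was 2.60-fold, 5.54-fold and 5.05-fold higher. Cyp4f18, which oxidises leukotriene B4, was at 221, 228 and 237 CPM against 81.9, 61.3 and 54.6. Pla2g7 hydrolyses platelet-activating factor and was 2.11-fold, 2.68-fold and 2.69-fold higher. The remaining genes, Gsg1 and the tetraspanin partner Igsf8, were between 2.54-fold and 7.14-fold higher.

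Lyz2, lysozyme of myeloid cells, was at 14720 CPM in Control Plet1-positive cells against 5216 in Plet1-low cells, 12947 against 2943 in CpG and 12661 against 3833 in R848. Lyz1 is a near-identical copy that the rule capped, so the split of reads between them is uncertain. The LysoDC and macrophage marker list, which also holds Il22ra2 and Lyz2, summed to 18030 CPM in Control Plet1-positive cells. Without Lyz2 the sum was 3310 CPM in Control, 2514 in CpG and 2383 in R848, against 2719, 1596 and 1494 in Plet1-low cells. This sum was higher in the Plet1-positive cells of each library, but it still holds Il22ra2. In Control, Il22ra2 (1004 against 367 CPM) differed by more than the sum did, so the other genes together were not higher there. In CpG (1036 against 271) and R848 (645 against 135) Il22ra2 differed by less than the sum. The list's part in the differences was not tested. C1qa, which defines LysoDC and macrophages and was capped too, was at 151 CPM against 166 in Control, 88.8 against 94.8 in CpG and 107 against 103 in R848. As the rule capped C1qa in both classes, nothing is read from its levels.

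Among genes lower in Plet1-positive cells, Mdk (midkine, a heparin-binding growth factor) had 4.12 (Control), 5.26 (CpG) and 8.88 CPM (R848) against 60.3, 135 and 251. Ly9, a SLAM-family receptor of lymphocytes, was at 8.23, 1.75 and 4.00 CPM against 65.5, 114 and 113. Cd7, an immunoglobulin-superfamily receptor, was at 42.9, 25.6 and 52.0 CPM against 220, 139 and 215. Each was at a log2 ratio of -1.95 or below in all libraries. Tbc1d4 (a Rab GTPase regulator), Zfp36l1 (an mRNA decay factor), Tmem176a and Tmem176b (intracellular ion channels of antigen-presenting cells), Il4i1 (an amino acid oxidase), Marcksl1 and Car2 (a carbonic anhydrase) made up the rest of the 10 named. Marcksl1 and Il4i1 are also on the list of mature dendritic cell markers. That list of 10 genes summed to 663, 805 and 772 CPM in Plet1-positive cells and to 1229, 1825 and 2063 in Plet1-low cells, although both were capped on Ccr7 and Fscn1. Its part in the differences was not tested.

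**Figure D3:**
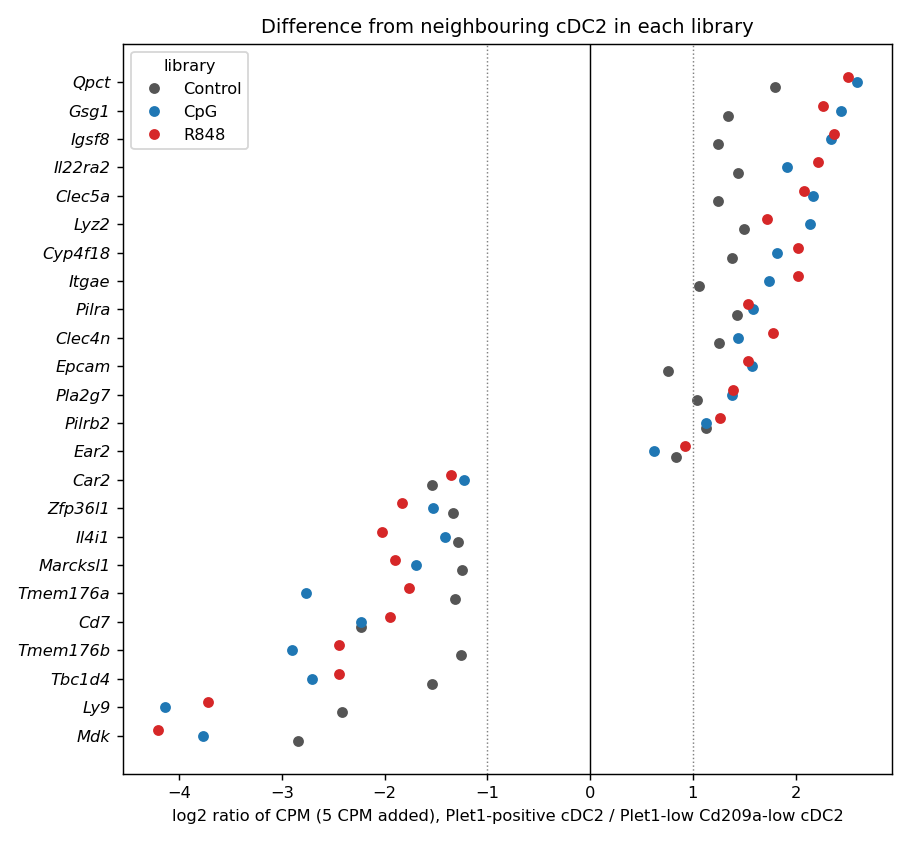
Log2 ratio of CPM (5 CPM added) of Plet1-positive over Plet1-low Cd209a-low cDC2, 1 point per gene and library, with dotted lines at 2-fold. The 12 genes called higher and the 10 named lower were picked for the same call in all 3 libraries, which sets their side. Epcam and Ear2, which were not picked this way, lie above 0 in each.

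The number of UMIs of the 3 genes is a continuous scale, and several genes followed it within resting Cd209a-low cDC2 thinned to 4000 UMIs. Itgae was at 55.0 CPM in Control cells with 0 such UMIs, 97.5 with 1 to 2, 112 with 3 to 4, 160 with 5 to 9 and 141 in the 46 cells with 10 or more. Il22ra2 went from 279 through 644, 822 and 1120 to 1429 CPM. Ly9 ran the other way, from 71.0 through 22.6 to 9.54 CPM at 3 to 4 UMIs. In CpG, Il22ra2 was at 202, 544, 1084, 1071 and 1571 CPM along the scale. In R848 it was at 120, 420, 304, 622 and 806 CPM and so was lower just inside the limit of 3 UMIs than just outside it. Itgae went from 57.6 to 214 CPM in CpG and from 31.9 to 315 in R848. For these genes in Control, cells with 1 to 2 lay between those with 0 and those with 3 to 4. Thinning moved some chosen cells into the lower bins, so the bins cannot show whether a step stands at the limit. Itgae, Il22ra2 and Ly9 had also been named for differing between classes split on this sum, so their trend is a description. Gp2, a gene of M cells, went from 8.88 to 174 CPM along the scale in Control. In the treated libraries its order was not steady: 11.8, 15.5, 9.38, 28.6 and 64.3 CPM in CpG and 10.6, 36.1, 63.3, 34.1 and 37.0 in R848. The treated values rest on 3 to 20 Gp2 UMIs a bin, and the Control values on 26 to 50.

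**Figure D4:**
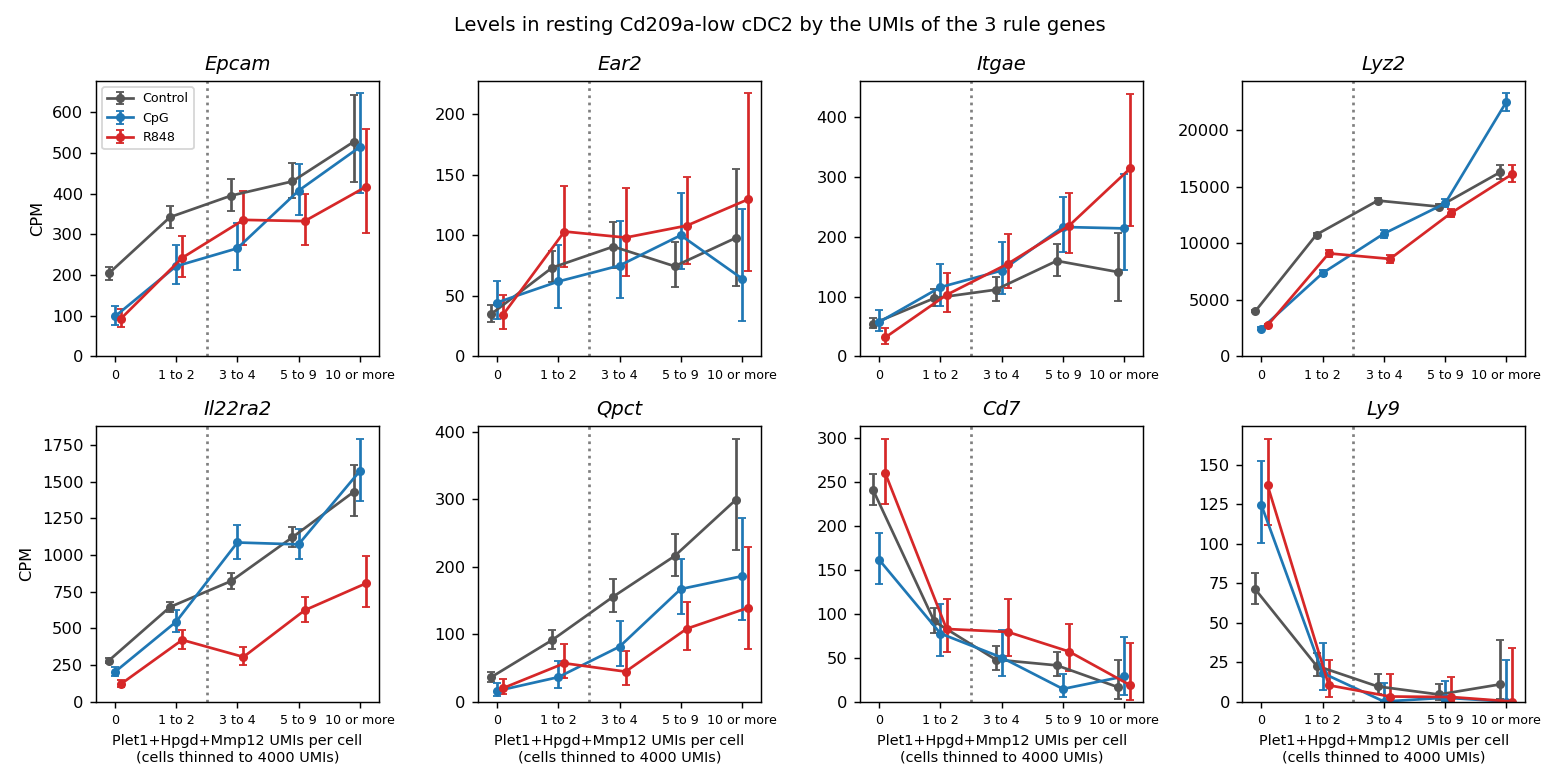
CPM of 8 genes in resting Cd209a-low cDC2 thinned to 4000 UMIs, by the cell's UMIs of Plet1, Hpgd and Mmp12, with exact 95% Poisson intervals; the dotted line is the limit of 3 UMIs. Il22ra2 in Control runs from 279 to 1429 CPM and Ly9 from 71.0 to 9.54 CPM at 3 to 4 UMIs.

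Epithelial cells carry Plet1, Epcam and Gp2, so their markers were read beside these genes. The 19 epithelial markers summed to 45.3, 50.2 and 59.1 CPM in Plet1-positive cells and to 49.3, 23.3 and 67.0 in Plet1-low cells. Gp2 gave 34.7, 39.3 and 39.5 CPM of the former sum and was the only marker of the list at 20 CPM or more, and 6, 7 and 8 of the 19 were at 0. Gp2 was found in 77, 34 and 28 of the Plet1-positive cells, with at most 12, 15 and 14 UMIs in a cell. Of the 24 epithelial-type adhesion and junction genes, 7 were measured at 20 CPM or more in Control and none was called, with Cdh17, an intestinal cadherin, at 12.3 against 31.4 CPM. Cdh17 was called lower in CpG (29.1 against 110 CPM) and R848 (31.5 against 84.6), and F11r, a tight junction protein, higher in CpG (93.4 against 40.3). B and plasma cell markers summed to 15.1 to 19.7 CPM and T, NK and innate lymphoid markers to 10.9 to 28.4. The 11 monocyte markers summed to 3939, 7068 and 6693 CPM in Plet1-positive cells and to 2611, 4004 and 3803 in Plet1-low cells. Plac8, the leading gene of that list, gave 3838, 6829 and 6454 CPM of the former sum. Of the 11, 4, 6 and 6 were at 0 in Plet1-positive cells, and Ms4a4c was the 1 called higher with each agonist. Their part in the results was not tested. cDC1 markers summed to 706 to 809 CPM, led by Batf3, and Xcr1 and Clec9a, which were capped, to at most 4.47 and 1.43 CPM.

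The pathways around Hpgd and Mmp12 were compared with the Plet1-low neighbours. Of 33 prostaglandin and leukotriene genes, 6 besides Hpgd were measured in Control and none was called; Cysltr1, a leukotriene receptor, was at 32.7 against 15.2 CPM and Alox5ap, the 5-lipoxygenase activating protein, at 408 against 316. The list's median log2 ratio was 0.32, against -0.08 over all genes measured. In CpG, Ltc4s, the leukotriene C4 synthase, was called higher at 53.3 against 8.51 CPM. Of 32 metalloproteases and inhibitors, 7 besides Mmp12 were measured in Control and none was called, and in CpG Adam19 was called higher at 64.2 against 27.2 CPM. Among 26 cytokines, 3 of 6 measured were called higher in Control: Il22ra2, Il1b at 1279 against 629 CPM and Il1rn, the interleukin 1 receptor antagonist, at 112 against 52.1. Il1b was called again in R848 (1113 against 368 CPM) but not in CpG (1173 against 655), and Il1rn in neither. Il12b, a subunit of interleukins 12 and 23, was called lower in CpG at 1.05 against 73.2 CPM. Among 26 chemokines, 2 of 7 measured in Control were called lower, Ccl5 at 19.0 against 67.4 CPM and Ccl22 at 16.1 against 53.7. Over all genes measured by the list rule (20 CPM in a class), 0.668% were 2-fold higher and 0.969% 2-fold lower in Control, 1.53% and 2.62% in CpG and 1.64% and 2.88% in R848. Ccr1, a receptor for inflammatory chemokines, was at 369 against 207 CPM in Control, where it was not called, and was called higher in CpG (376 against 128) and R848 (368 against 125).

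In Control, the only library with enough Cd209a-positive cells, Plet1-positive cells differed from that neighbour more broadly. Of 2416 genes tested, 62 were called higher (2.57%) and 65 lower (2.69%), or 5.26% either way. Il22ra2 was at 1004 against 118 CPM, 8.54-fold higher (7.33 to 10.0). Ccr9, the receptor that draws cells to the small intestine, was at 180 against 36.5 CPM, Il1rn at 112 against 17.2, the arginine-synthesis enzyme Ass1 at 355 against 55.0 and the calcium-binding S100a6 at 3655 against 723. Ifitm1, Dapk2 and Pxdc1 completed the 8 highest. Lower genes were Cd209b at 6.44 against 128 CPM, Apol10b and Apol7c of the apolipoprotein L family at 4.47 against 80.5 and 85.5 against 775, the transcription factor Runx1 at 35.1 against 234, the Fc receptor Fcgr3 at 12.0 against 81.2, Clec4a2 at 53.0 against 241, Serpinb6b and Cxx1b. Ear2 was lower in Plet1-positive cells, 81.6 against 192 CPM, and Epcam was 406 against 344. Of the 204 Cd209a-positive cells, 118 also had at least 3 UMIs of Plet1, Hpgd and Mmp12 and were left out of the Plet1-positive cells by the Cd209a limit alone. By the list rule, 2.19% of genes were 2-fold higher and 2.28% lower. Of 9 prostaglandin and leukotriene genes measured, 5 were 2-fold lower and 2 were called lower, Ltc4s at 55.7 against 122 CPM and Cysltr1 at 32.7 against 75.7. Their median log2 ratio was -1.03, against 0.02 over all genes measured. Of 12 C-type lectin receptors measured, 1 was 2-fold higher and 7 were 2-fold lower. Cd209 and Clec4a genes come in families of similar copies, so their counts are uncertain.

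Control Plet1-positive cells also varied among themselves. On thinned cells, 41 of 708 had both Hpgd and Mmp12, where the product of their shares gives 26.1. With Mmp12 (148 cells) against without (560), 3 genes of 2345 tested were called higher and 6 lower. Ccl17, a chemokine for CCR4-bearing T cells, was at 374 against 100 CPM, Ms4a6d at 72.2 against 28.8 and Ppp1r1a at 113 against 49.2. Cd7 was at 9.46 against 52.0 CPM, Gadd45b at 12.9 against 51.6 and Ifitm1 at 425 against 985, with Tbc1d4, Fabp5 and Serpina3g also lower. With Hpgd (125 cells) against without (583), Cxcl2 was called higher and Ifitm1, Fabp5 and Lgals1 lower among 2348 tested. Ifitm1 was at 358 against 980 CPM. Ifitm1 and Fabp5 were lower on the side of either gene. These splits were made after the values had been seen, and they describe the same cells that were chosen on these genes.

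With CpG, the largest ratios to Control in Plet1-positive cells included many interferon-stimulated genes. Of 2538 genes tested, 75 were called higher (2.96%) and 22 lower (0.867%). With R848, 55 of 2566 were called higher (2.14%) and 12 lower (0.468%). Either way, 3.82% and 2.61% were called. The median ratio over genes with at least 50 CPM in both libraries had a log2 of 0.14 in either comparison. Scaling by that median ratio gave 52 higher and 32 lower with CpG and 38 and 20 with R848. The comparisons share the Control library and are given side by side.

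Irf7, the transcription factor that amplifies type I interferon, was at 8.77 CPM in Control, 300 in CpG and 343 in R848, or 34.3-fold (25.7 to 46.7) and 39.1-fold (29.3 to 53.3) higher. Isg15 was at 51.9, 598 and 374 CPM, Zbp1, a sensor of Z-form nucleic acids, at 12.5, 234 and 138, and Oasl2, an antiviral synthetase-like protein, at 4.83, 118 and 80.4. Their order was CpG above R848 for Isg15, Zbp1 and Oasl2, and R848 above CpG for Irf7. Ifi27l2a was at 78.4, 717 and 1153 CPM and Ms4a4c at 9.48, 154 and 156. Rtp4, Ifit3, Isg20, Ifit1 and Ifi205 completed the CpG list apart from Ccl5, at 9.31-fold to 20.1-fold higher. In Plet1-low cells of the same libraries Irf7 was at 10.1, 334 and 401 CPM and Isg15 at 45.9, 752 and 475, so that these genes were high in treated neighbours too. After thinning, an Irf7 UMI was found in 2.68%, 49.7% and 66.5% of Plet1-positive cells (5.38%, 71.6% and 88.0% unthinned) and in 9.23%, 41.8% and 42.0% of B-lineage cells. For Isg15 the thinned shares were 13.3%, 70.5% and 58.6% against 9.23%, 69.1% and 54.3% in B-lineage cells. For Ifi27l2a they were 20.8%, 59.7% and 74.9% against 72.3%, 96.4% and 100%. Whether B-lineage cells made these transcripts themselves was not tested.

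Of the 38 genes on the type I interferon list, 31 were measured for CpG and 28 were at least 2-fold higher, 20 of them called. For R848, 27 were measured, 22 were at least 2-fold higher and 15 were called. The list's median log2 ratios were 1.87 and 1.36, against 0.16 over all genes measured for either agonist, of which 2.4% and 2% were 2-fold higher and 0.897% and 0.505% 2-fold lower. Called members besides those above included Bst2 at 217, 782 and 729 and Xaf1 at 18.1, 118 and 116. Bst2 was among the surface stains of the sort. Of the interferon-induced GTPases, 5 of 7 measured were 2-fold higher with each agonist, Gbp2 at 24.5, 143 and 85.3 CPM.

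Among chemokines, Ccl5, which attracts T cells and monocytes, was at 19.0 CPM in Control, 187 in CpG and 829 in R848. It was 9.84-fold (7.98 to 12.2) and 43.7-fold (35.9 to 53.7) higher. Plet1-low cells held 67.4, 1102 and 1501 CPM, above the Plet1-positive cells in each library, and Ccl3, an inflammatory chemokine, was at 2.68, 46.7 and 8.88 CPM in Plet1-positive cells. In CpG, a Ccl5 UMI was found in 28.5% of thinned Plet1-positive cells and 29.1% of B-lineage cells. The CpG share thus did not stand above that of B-lineage cells, and in R848 it was 62.5% against 44.4%. Unthinned, the shares were 52.6% against 48.3% in CpG and 79.1% against 62.0% in R848. Cxcl10 was at 4.65, 47.7 and 86.2 CPM and Cxcl9, another CXCR3 ligand, at 38.5, 128 and 119. Ccl17 was at 161, 221 and 383 CPM and was called with R848. Of the chemokines measured, 5 of 9 were 2-fold higher with CpG, and 4 of 7 were higher and 1 lower with R848. The lower one was Cxcl2 at 27.7 and 10.7 CPM. Over all genes measured, 2.4% were 2-fold higher with CpG and 2% with R848, and 0.505% were lower with R848.

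**Figure D5:**
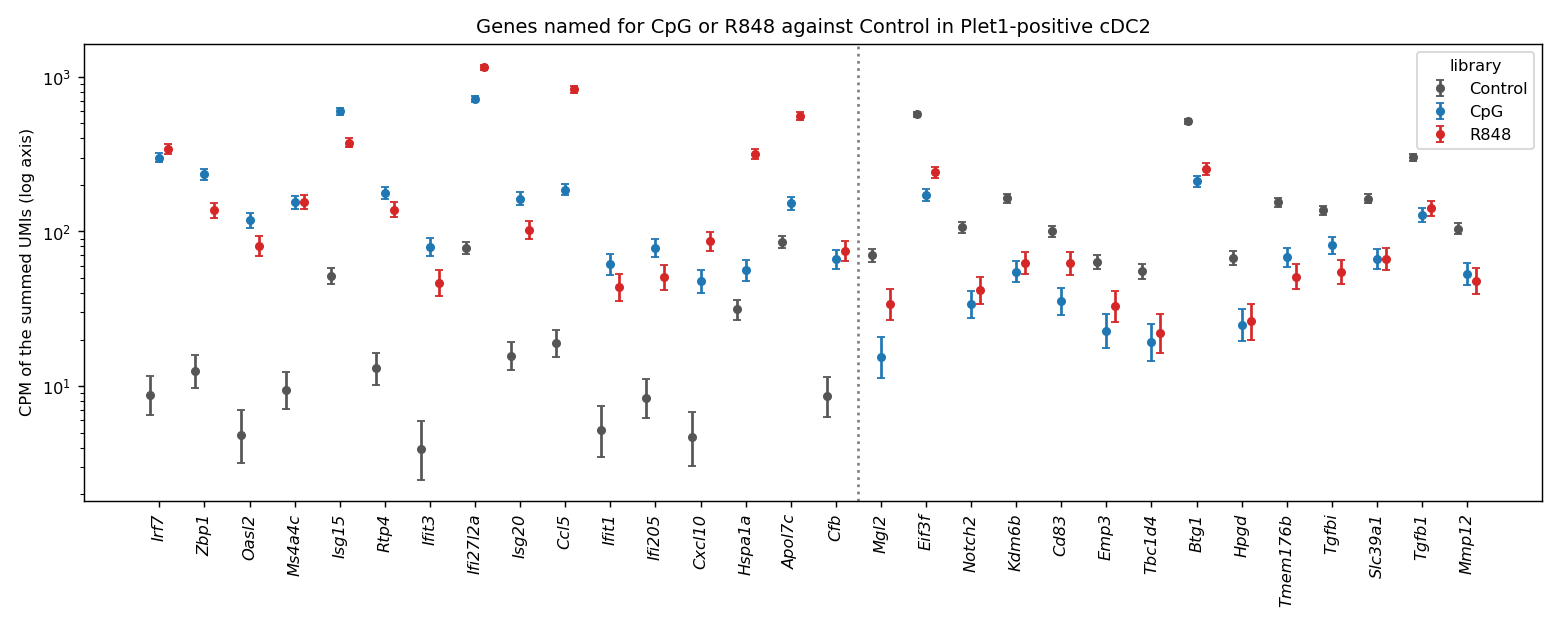
CPM (log axis) in Plet1-positive cDC2 of genes named for CpG or R848 against Control and of the called markers, with exact 95% Poisson intervals; genes left of the dotted line were called higher and those right of it lower in at least 1 comparison. Hpgd and Mmp12, drawn right of the line, are genes of the rule and were not counted among the calls. Irf7 runs from 8.77 CPM in Control to 300 in CpG and 343 in R848, and Ccl5 from 19.0 to 187 and 829.

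R848 exceeded Control also for Apol7c, of the apolipoprotein L family, at 85.5, 152 and 557 CPM, and for complement factor B (Cfb) at 8.59, 66.0 and 75.1. Hspa1a, an inducible heat shock protein of the HSP70 family, was at 31.3, 56.2 and 318 CPM. Hspa1a has a near-identical copy, Hspa1b, at 2.15, 3.86 and 24.9 CPM, so their split is uncertain. Of 12 dissociation and stress genes, a list drawn up after the data were seen, 3 went up from Control through CpG to R848: Hspa1a, Hspa1b and Dnajb1 (21.3, 33.3 and 45.7 CPM). The order was the opposite for 6, Fos, Fosb, Jun, Junb, Egr1 and Ier2, with Fos at 322, 262 and 187 CPM. Hspa8 (2205, 4092 and 2964 CPM) and Hsph1 were highest in CpG, and Atf3 was lowest there. Hspa1a in Plet1-low cells was at 29.8, 92.5 and 162 CPM. Its relation to handling was not tested.

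Among genes lower with an agonist, Notch2, the receptor needed for a subset of intestinal cDC2, was at 106 CPM in Control, 34.0 in CpG and 41.8 in R848. Kdm6b, a histone H3 lysine 27 demethylase, was at 164, 55.1 and 62.6 CPM, and Tgfb1, the cytokine TGF-beta 1, at 302, 128 and 142. Mgl2, a galactose-type lectin of cDC2 and macrophages, was at 70.0 and 15.4 CPM in Control and CpG and Cd83, a maturation marker, at 100 and 35.4. Eif3f, Tbc1d4, Emp3 and Btg1 completed the CpG list and Tmem176b, Tgfbi, Slc39a1, Eif3f and Tbc1d4 that of R848. All of these had at most 0.470 times the Control level. In Plet1-low cells Notch2 was at 135, 44.3 and 45.8 CPM, whereas Tbc1d4 was at 170, 153 and 143 there and at 55.1, 19.3 and 22.2 in Plet1-positive cells. Of 24 cDC2 surface and transcription factor genes measured, 3 were 2-fold lower with CpG (Mgl2, Notch2 and Runx1) and 1 with R848 (Notch2), and 0 were 2-fold higher with either. Of these, 2 were called lower with CpG and 1 with R848. Over all genes measured, 2-fold lower levels were seen for 0.897% with CpG and 0.505% with R848.

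The rule had capped these cells on Ccr7 and Fscn1. Of 24 maturation genes measured with CpG, 0 were 2-fold higher and Cd83 was lower; of 25 with R848, Ccl17 and Socs2 were 2-fold higher. Of 13 MHC class II genes (H2-Ab1, used by the rule, left out), 0 were 2-fold different with either agonist. Over all genes measured, 2.4% were 2-fold higher and 0.897% lower with CpG, and 2% and 0.505% with R848. At such shares, counts of 0 in lists of this length are not read as a result. Among MHC class I genes, 2 of 21 were higher with CpG, H2-T23 at 137 and 313 CPM and the immunoproteasome subunit Psmb10 at 175 and 425, and 2 of 20 with R848, H2-T23 at 293 CPM and H2-Q6 at 22.5 and 50.2. H2-Q genes are near-identical copies, so that count is uncertain. The median log2 ratios of that list were 0.63 and 0.60, against 0.16 for all genes. Il22ra2 was 1.03 times its Control level with CpG (0.987 to 1.08) and 0.643 times with R848 (0.606 to 0.681). Il1b was at 1279, 1173 and 1113 CPM. Tlr9 and Tlr7, the receptors of the agonists, were near 0 in all 3 libraries, at most at 0.351 and 1.05 CPM. In these cells 3 UMIs make 0.537 CPM in Control, 1.05 in CpG and 1.33 in R848. Absence of the receptors is therefore not read from such low counts.

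R848 and CpG Plet1-positive cells were close to each other. Of 2612 genes tested, 9 were called higher with R848 (0.345%) and 4 lower (0.153%), 0.498% either way; by the list rule 0.267% were 2-fold higher and 0.123% lower. Hspa1a, Ccl5 and Apol7c were 5.67-fold (4.77 to 6.77), 4.44-fold (4.03 to 4.90) and 3.66-fold (3.28 to 4.10) higher, and Runx1, Tnni2 and Tm4sf5 followed. Runx1 was at 57.7 CPM in R848 against 13.3 in CpG, and in Plet1-low cells at 22.9 against 22.7. Control lay between the agonists in Plet1-positive cells, with Runx1 at 35.1 CPM, Tnni2 at 133 (233 in R848, 66.0 in CpG) and Tm4sf5 at 33.6 (55.5 and 22.5). Runx1 and Apol7c were higher in Control Cd209a-positive cells, as given above. In cells with at least 3 Plet1 and under 3 Cd209a UMIs, Cd209a was at 20.6 CPM in Control, 0.354 in CpG and 15.2 in R848. Its part was not tested. Lower genes included the sulfotransferase Sult1a1 at 31.1 against 90.2, the histone Hist1h2bc at 23.5 against 54.8 and the oxysterol hydroxylase Cyp7b1 at 22.2 against 51.9.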

How the data were processed

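The 3 matrices are UMI counts per gene and cell as deposited; the authors made them with Cell Ranger 2.0.0 on mm10, per the submitters' processing notes. Each group is 1 library of 12 pooled mice. The kept cells hold 43407190 (Control), 43672252 (CpG) and 46473204 (R848) UMIs. Levels are CPM of each class's pooled UMIs, with 5 CPM added for log2 ratios. A call needed 50 CPM and 20 UMIs in the higher class, a 2-fold log2 ratio and an interval that left out 1. This rule was run on simulated counts that held counting error alone. The run therefore does not show how the rule fares with variation between pools, sorts or libraries. Named genes are those with the largest ratios among the called: up to 12 higher and 8 lower against Control, 6 and 6 between agonists, 15 and 10 against Plet1-low and 8 and 8 against Cd209a-positive cells, beside list members. Genes of the rule were not counted. Between agonists, 1 gene that this rule would name is not reported here. Cells were thinned to 4000 UMIs where shares were compared. Doublets stayed in and their removal was an alternative (225, 202 and 209 cells). The cells, lists and comparisons were chosen with earlier results of these data known. The list of 12 stress genes was added after the data were seen. Python 3.11.15, NumPy 2.4.6, SciPy 1.17.1 and pandas 2.3.3 were used. Lists held 554 genes, 13 of them not matched to the matrix.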

Additional observations from a re-analysis of the deposited data

How the results depend on the processing

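No paired analysis was possible because each group is 1 library, and no replicate could be left out. Over all alternatives, the ratios of single genes and the shares of denominators other than the resting gate were recomputed. They stayed within their own interval in 1438 values and moved beyond it in 437. No called ratio changed sign. The settings differed: raw limits on cells thinned to 4000 UMIs moved 79 values and left 79, and 20 CPM added moved 96 and left 59. Each changed CPM minimum, and 1 CPM added, left all 155 within their interval. With 20 CPM added in place of 5, CpG against Control gave 12 genes lower, R848 against CpG 2 lower and Plet1-positive against Cd209a-positive cells 41 higher and 42 lower. Without a CPM minimum, higher and lower genes were 135 and 55 for CpG, 119 and 44 for R848, 20 and 10 for R848 against CpG, 22 and 36 against Plet1-low cells and 141 and 133 against Cd209a-positive cells. With a minimum of 100 CPM, 48 genes were higher with CpG and 32 with R848, 1 was lower for R848 against CpG, 7 were lower against Plet1-low cells, and 33 were higher and 30 lower against Cd209a-positive cells. Median-ratio scaling gave 20 genes lower with R848. The share of the resting gate in Control, CpG and R848 was 42.9%, 59.8% and 55.0% with a limit of 2 UMIs, 24.7%, 45.3% and 40.4% with 5, and 28.6%, 42.6% and 39.5% on thinned cells. Removing likely doublets, a 5% library-wide profile or, chosen after seeing the data, the deepest 5% of cells left each count of genes within 1.5 times. The cause of the other moves was not tested.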
